A study of Mus musculus with 2 samples.

Results

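Foxd1 and Hmx1, a pair of transcription factor genes of the temporal and nasal retina, were described through the open chromatin around them. For each gene, all DNase peaks overlapping its GENCODE gene body or the 150 kb on either side were taken from both libraries. These windows held 113 of 165269 peaks in replicate 1 and 145 of 219308 in replicate 2. The same windows held 96 of 145732 hotspots, the broader regions of frequent DNase cutting, in replicate 1 and 117 of 183723 in replicate 2.

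Foxd1 encodes a forkhead factor made in the temporal retina, where it acts early in giving cells their temporal identity. Hmx1 encodes a homeodomain factor of the nasal retina that is also made in cranial ganglia and facial mesenchyme. Factors of this kind stand upstream of the Eph receptors and ephrins that guide ganglion cell axons along the nasal-temporal axis. DNase I cuts DNA that nucleosomes leave exposed, so its cut sites mark promoters, enhancers and insulators.

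The data held 1 group, retina of mouse embryos of strain B6NCrl at embryonic day 14.5, healthy and of pooled sexes. It had 2 biological replicates under 1 donor label and with no other genotype or treatment. The tissue was whole retina, so nasal and temporal cells were not separated and a site open in either could enter the lists. Replicate 1 was also run on an instrument model on which replicate 2 was not, so instrument and replicate cannot be told apart. Replicate 2 had 1.33 times as many peaks and its hotspots covered 1.48 times as many bases. The files held no read totals, so depth is unknown, and no test between conditions was possible.

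The label of the tissue was checked on promoter peaks, those within 1 kb of a transcription start site (TSS). In both libraries, 8 of 8 retinal progenitor markers and 5 of 5 ganglion cell markers had one. So did 9 of 10 markers of periocular mesenchyme and neural crest, 3 of 5 of pigment epithelium, 2 of 4 of lens, 3 of 4 of ventral diencephalon and 3 of 3 matched of cranial ganglia (of 4 listed). Beside the 70.3% and 71.9% of all protein-coding genes with a promoter peak, most of these counts say little about the tissue. The lens crystallin genes Cryaa and Cryab, the collagen gene Col3a1 and the pigment genes Rpe65 and Tyr had none in either library. Foxd1 and Hmx1 are also active in some of these other tissues, and the part of such cells in their peaks was not tested.

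Both genes lie on the plus strand of GRCm38, the same assembly as mm10. Foxd1 (ENSMUSG00000078302.5) is a single exon at chr13:98354242-98359305, and Hmx1 (ENSMUSG00000067438.5) spans chr5:35389108-35399730. Their promoters are shown first, because each carried a peak in both libraries. The sequences are from RefSeq, GRCm38.p6, plus strand, and end before the first annotated start. Capitals mark bases that lay inside a peak of both libraries.
Foxd1 promoter, chr13:98353995-98354241: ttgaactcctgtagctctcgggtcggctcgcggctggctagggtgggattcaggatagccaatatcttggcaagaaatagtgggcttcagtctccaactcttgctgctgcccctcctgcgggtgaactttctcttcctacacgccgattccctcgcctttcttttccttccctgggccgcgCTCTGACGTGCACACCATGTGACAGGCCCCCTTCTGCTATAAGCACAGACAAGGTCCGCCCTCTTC
Hmx1 promoter, chr5:35388611-35388860: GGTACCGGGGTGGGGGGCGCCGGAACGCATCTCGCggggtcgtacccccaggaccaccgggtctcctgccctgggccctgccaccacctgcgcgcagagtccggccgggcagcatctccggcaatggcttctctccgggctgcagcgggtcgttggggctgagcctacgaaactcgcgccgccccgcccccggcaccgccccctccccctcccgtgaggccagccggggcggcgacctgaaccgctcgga
The capitals cover the 66 bases next to the Foxd1 start and 35 bases at the far end of the Hmx1 stretch. That stretch ends before the RefSeq start of Hmx1, at 35388861. This start lies upstream of the GENCODE start, 35389108, from which distances are given here. The RefSeq promoter windows, which run on past the start, had 57.7% G and C with 15 CpG for Foxd1 and 75.7% with 38 CpG for Hmx1.

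The distal sites shown next are drawn from those in both libraries with the highest ranks, taken by the lower of the 2 libraries, more than 1 kb from any TSS. For Foxd1 they are 3 of the top 5, and for Hmx1 they are 4 of the top 5. The Foxd1 pair left out, at -124 and -114 kb, had the highest lower ranks of its 5, 90.2 and 89.9. Its nearest coding gene was Utp15. Sites shown also had other nearest coding genes, Gm21976 at -55.1 kb and Gm10320 at +75.8 kb of Foxd1. For the Hmx1 sites at +107 and +122 kb it was Cpz. Each is the 150-bp peak of replicate 1 on the plus strand of GRCm38, and capitals mark matches to the E-box CANNTG, the Sox core ACAAAG (read as CTTTGT on the other strand) or the CTCF core.
Foxd1 at -55.1 kb, chr13:98299116-98299265: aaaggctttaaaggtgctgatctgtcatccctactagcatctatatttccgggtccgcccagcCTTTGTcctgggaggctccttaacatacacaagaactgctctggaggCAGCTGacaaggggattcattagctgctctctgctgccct
Foxd1 at +75.8 kb, chr13:98429996-98430145: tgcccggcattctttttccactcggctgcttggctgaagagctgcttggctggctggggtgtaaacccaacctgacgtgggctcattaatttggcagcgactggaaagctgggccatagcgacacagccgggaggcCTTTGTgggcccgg
Foxd1 at +37.1 kb, chr13:98391236-98391385: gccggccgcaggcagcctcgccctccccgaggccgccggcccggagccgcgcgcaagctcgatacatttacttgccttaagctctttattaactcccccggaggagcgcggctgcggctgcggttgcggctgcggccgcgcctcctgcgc
Hmx1 at +59.0 kb, chr5:35447996-35448145: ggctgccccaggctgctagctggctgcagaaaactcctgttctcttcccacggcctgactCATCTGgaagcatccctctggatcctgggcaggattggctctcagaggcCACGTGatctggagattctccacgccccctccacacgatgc
Hmx1 at +65.5 kb, chr5:35454536-35454685: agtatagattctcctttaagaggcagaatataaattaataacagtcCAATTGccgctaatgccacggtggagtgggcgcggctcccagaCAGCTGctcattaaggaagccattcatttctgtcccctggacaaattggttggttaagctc
Hmx1 at +122 kb, chr5:35510696-35510845: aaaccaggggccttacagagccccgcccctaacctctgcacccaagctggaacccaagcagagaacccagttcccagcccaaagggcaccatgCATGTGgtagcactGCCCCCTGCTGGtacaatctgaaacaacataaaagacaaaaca
Hmx1 at +107 kb, chr5:35496116-35496265: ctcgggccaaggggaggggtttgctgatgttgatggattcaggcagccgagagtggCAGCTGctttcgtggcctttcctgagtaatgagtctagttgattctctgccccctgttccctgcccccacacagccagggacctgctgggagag
The +122 kb site of Hmx1 holds a CTCF core, the motif of the insulator protein CTCF, beside an E-box, the core bound by basic helix-loop-helix factors. The Hmx1 sites at +59.0 and +65.5 kb hold 2 E-boxes each, and the share of all peaks with 2 was not computed. A match describes letters and not binding.

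The Foxd1 promoter was open in both libraries, with a peak over the start site itself. The deposited peak score, which was used only to rank peaks within a library, was 90 in replicate 1 and 124 in replicate 2. These scores stood at the 91.3rd percentile of all peaks in replicate 1 and the 95.7th in replicate 2, a mean rank of 93.5 ± 3.06 (SD, n = 2). Promoter peaks are strong in general. Among genes with a promoter peak, 70.3% of 21755 protein-coding genes in replicate 1 and 71.9% in replicate 2, the Foxd1 rank lay at the 33.0th and the 48.3rd percentile. The median open promoter ranked 95.0 in replicate 1 and 95.9 in replicate 2, so the Foxd1 promoter was below the middle of open promoters in both.

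The Hmx1 promoter peak ranked higher than that of Foxd1 in both libraries. Its score was 113 in replicate 1 and 132 in replicate 2, which ranked at 96.1 and 97.5 (mean 96.8 ± 0.976, SD, n = 2). Among open promoters it stood at the 58.6th percentile in replicate 1 and the 65.9th in replicate 2. The centre of the peak lies about 0.5 kb upstream of the GENCODE start of Hmx1. Its edge lies 60 bp in replicate 1 and 20 bp in replicate 2 from the start of E130018O15Rik, the nearest TSS. E130018O15Rik is a divergent long noncoding RNA whose TSS lies at -0.632 kb from that of Hmx1. The peak cannot be assigned to one of these genes rather than the other. Replicate 1 had another promoter peak, at -0.177 kb (score 90, rank 91.3), and replicate 2 had another at +0.943 kb (score 97, rank 86.5), each in that library alone.

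The window of Foxd1 held 51 peaks in replicate 1 and 80 in replicate 2, or 16.7 and 26.2 per 100 kb (mean 21.5 ± 6.72, SD, n = 2). The median protein-coding gene had 9.11 per 100 kb in replicate 1 and 11.7 in replicate 2. Foxd1 therefore stood at the 83.7th percentile of genes in replicate 1 and the 96.1st in replicate 2. The ratio of replicate 2 to replicate 1 was 1.57 at Foxd1, against 1.33 over all peaks. Hotspots covered 6.69% of the window in replicate 1 and 10.7% in replicate 2, against gene medians of 3.34% and 4.66%. The count at Foxd1 thus differed widely between the libraries. Their spread includes the library-wide difference in peak number, so it is not an error of the Foxd1 density alone.

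The window of Hmx1 held 62 peaks in replicate 1 and 65 in replicate 2, or 20.0 and 20.9 per 100 kb (mean 20.4 ± 0.683, SD, n = 2). It stood at the 90.4th percentile of genes in replicate 1 and the 88.0th in replicate 2. The ratio of replicate 2 to replicate 1 was 1.05, below the 1.33 of all peaks. The close totals covered local differences in both directions. From the TSS to 50 kb downstream, replicate 1 had 9 peaks and replicate 2 had 18. From 50 to 100 kb downstream they had 14 and 12, and from 100 to 150 kb 14 and 10. In the 50 kb upstream of the TSS they had 9 and 4. The small SD is thus a likeness of totals and not of places. Hotspots covered 6.94% of the window in replicate 1 and 7.74% in replicate 2. The densities of Foxd1 and Hmx1 kept no common order, since Hmx1 had more peaks per 100 kb in replicate 1 and Foxd1 more in replicate 2.

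**Figure D1:**
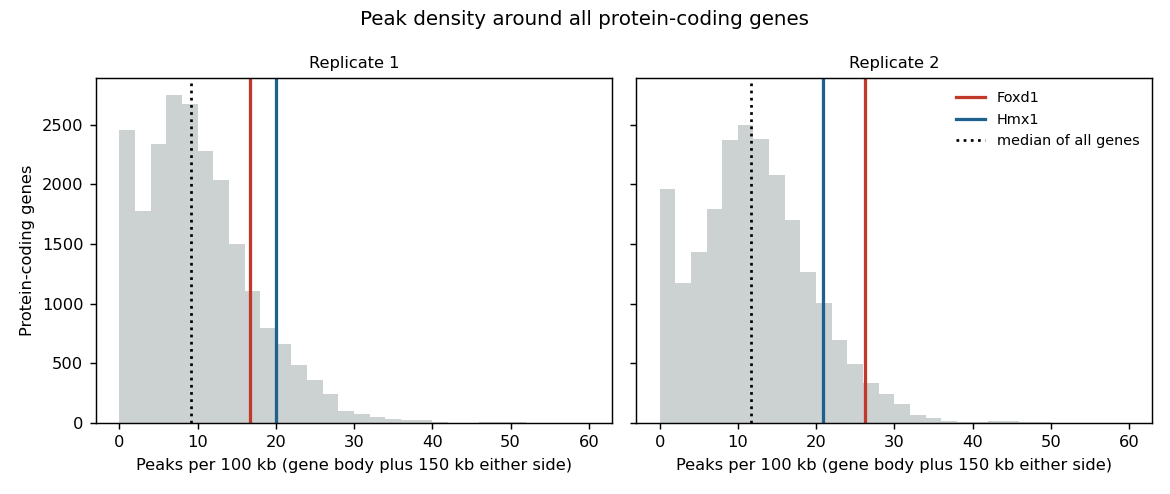
Protein-coding genes (y axis, number of genes) by peaks per 100 kb of the window around each gene (x axis), in each library, with lines at Foxd1, Hmx1 and the median gene. Both genes lie above the medians of 9.11 and 11.7, and Foxd1 has 16.7 per 100 kb in replicate 1 and 26.2 in replicate 2 while Hmx1 has 20.0 and 20.9.

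Peaks of the Foxd1 window found in both libraries, by an overlap of at least 1 bp, were 41 of 51 in replicate 1 (80.4%) and 40 of 80 in replicate 2 (50%). Over all peaks the shares were 73.1% in replicate 1 and 53.9% in replicate 2. Hmx1 had 46 of 62 shared in replicate 1 (74.2%) and 44 of 65 in replicate 2 (67.7%). The replicate 2 share was thus above the genome's at Hmx1 and near it at Foxd1. With only the stronger peaks of each library, those above its middle rank, this order turned round. The overlapped peak of the other library also had to be stronger, so a peak with a weaker partner counted as unshared. The replicate 2 share was then 76.2% at Foxd1 and 58.2% at Hmx1, against 67.7% over all stronger peaks. At Foxd1, peaks in 1 library alone had a median rank of 38.0 in replicate 1 and 37.5 in replicate 2, below the 66.0 and 72.2 of the shared peaks. At Hmx1 the peaks found in replicate 1 alone had a median rank of 39.4, below the 64.5 of shared peaks. Those found in replicate 2 alone had 67.1, nearer the 74.1 of shared peaks there.

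The strongest peaks of each library were counted next. Above rank 90 lay 6 of 51 Foxd1 peaks in replicate 1 (11.8%) and 7 of 80 in replicate 2 (8.75%), against 9.95% and 9.84% of all peaks. Above that rank lay 9 of 62 Hmx1 peaks in replicate 1 (14.5%) and 10 of 65 in replicate 2 (15.4%). Foxd1 was thus near the background. The Hmx1 shares were above it, but rest on 9 and 10 peaks and so carry wide counting error. Those peaks include the promoters of Cpz and 4930478P22Rik in both libraries. Sites above rank 90 in both libraries numbered 5 of 41 shared sites at Foxd1 and 7 of 46 at Hmx1, against 12.6% of all shared peaks. Of the shared distal sites, 1 of 33 at Foxd1 and 4 of 40 at Hmx1 were above it in both, against 4.07% of all.

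The strongest peak of the Foxd1 window was not at Foxd1. It was the shared promoter of Utp15, a ribosome biogenesis gene, and Ankra2, an ankyrin repeat gene, with rank 99.9 in both libraries. The promoter of Btf3, whose product binds nascent polypeptides at the ribosome, and of the noncoding Gm9828 ranked 96.3 in replicate 1 and 95.0 in replicate 2. The Arhgef28 promoter ranked 92.3 and 92.8. The coding genes Gm21976 and Gm10320 had no promoter peak. The Foxd1 promoter was the fourth strongest peak of its window in replicate 1 and the second in replicate 2.

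**Figure D2:**
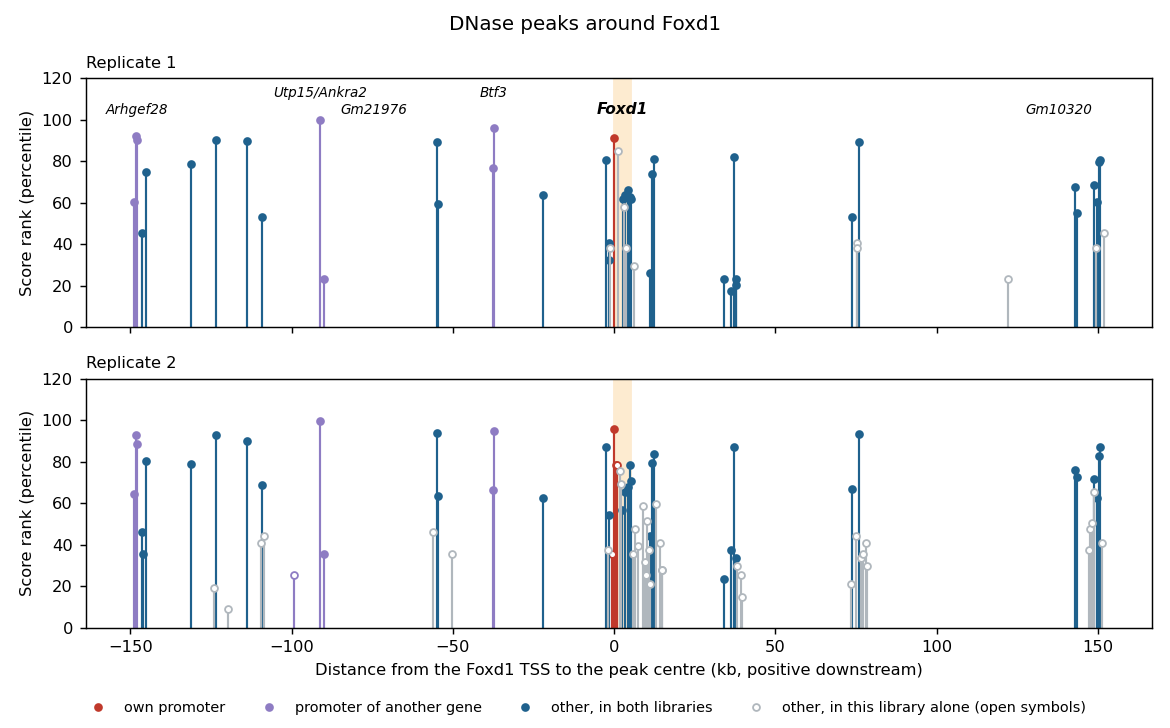
Peaks around Foxd1 by distance from its TSS (x axis, kb) and score rank within the library (y axis, percentile), 1 panel per library; the shaded band is the gene, filled symbols are peaks found in both libraries and open symbols peaks found in 1 alone. The strong sites recur in both panels, and many open symbols of low rank lie downstream of the gene in replicate 2.

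Distal sites near Foxd1 were strongest far from it. The site at -124 kb, nearest to Utp15, scored 86 in replicate 1 (rank 90.2) and 113 in replicate 2 (rank 92.8). The site at -114 kb scored 85 (rank 89.9) and 105 (rank 90.0). The site at -55.1 kb, in an intron of Gm21976, scored 83 (rank 89.2) and 117 (rank 94.0). These 3 lie beyond Btf3 from Foxd1, and which gene they act on was not measured.

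Downstream, the +75.8 kb site lay in an intron of the long noncoding RNA 2310005E17Rik. It scored 83 in replicate 1 (rank 89.2) and 115 in replicate 2 (rank 93.4). The +37.1 kb site, whose nearest coding gene is Foxd1, scored 66 (rank 82.2) and 99 (rank 87.4). Closer in, a site at -2.51 kb scored 63 in replicate 1 (rank 80.7) and 98 in replicate 2 (rank 86.9). A site at +12.3 kb scored 64 (rank 81.2) and 91 (rank 83.6). All shared distal sites of the window, near and far, ranked below the Foxd1 promoter in both libraries.

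Much of the Foxd1 gene lay in hotspots. The widest hotspot of the window began upstream of its start and ran into the gene in both libraries. It was 2893 bp wide in replicate 1 and 4651 bp in replicate 2, and ended before the gene's 3' end in each. The gene body held 8 peaks in replicate 1 and 9 in replicate 2. By peak centre, most lay in the 3' UTR, where shared peaks at +4.81 kb in replicate 1 and +4.87 kb in replicate 2 scored 38 in replicate 1 (rank 62.9) and 81 in replicate 2 (rank 78.3). In the coding part, a peak at +1.09 kb scored 72 in replicate 1 (rank 84.9) without an overlap in replicate 2, whose nearest peak ended 10 bp away. Replicate 2 had coding peaks of its own at +0.469, +0.929 and +1.71 kb, with scores of 81, 81 and 76. The 2 libraries therefore placed peaks differently over the same open stretch.

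Replicate 2 had many more peaks than replicate 1 just downstream of Foxd1. From the TSS to 50 kb downstream, replicate 2 had 32 peaks and replicate 1 had 18, with 14 shared sites, beside the ratio of 1.33 over all peaks. Within 5 to 16 kb downstream, limits chosen after the values were seen, replicate 2 had 17 peaks and replicate 1 had 5. Of the 17, 13 were in replicate 2 alone, with ranks of 21.1 to 59.8, leaving 4 shared, against the 53.9% of all replicate 2 peaks that were shared.

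The strongest site of the Hmx1 window outside its promoter was at +59.0 kb. It scored 109 in replicate 1 (rank 95.4) and 139 in replicate 2 (rank 99.1), and in replicate 2 it was the strongest peak of the window, above the promoter. The +65.5 kb site scored 106 (rank 94.8) and 121 (rank 95.0). Hmx1 was the nearest coding gene to both. The +107 kb site scored 95 (rank 92.6) and 128 (rank 96.6). The +122 kb site, in an intron of the carboxypeptidase gene Cpz, scored 98 (rank 93.2) and 115 (rank 93.4), and the +135 kb site, also in Cpz, scored 92 (rank 91.8) and 105 (rank 90.0).

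All 5 of these lay downstream of Hmx1, between it and the Cpz promoter at +137 kb. Nearer the gene, a pair of adjacent sites at +18.4 and +18.7 kb ranked 88.5 and 87.4 in replicate 1 and 91.8 and 92.8 in replicate 2. Upstream, a site at -9.08 kb in an exon of E130018O15Rik ranked 89.2 in replicate 1 and 89.6 in replicate 2. A site at -40.1 kb ranked 86.2 and 87.8.

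**Figure D3:**
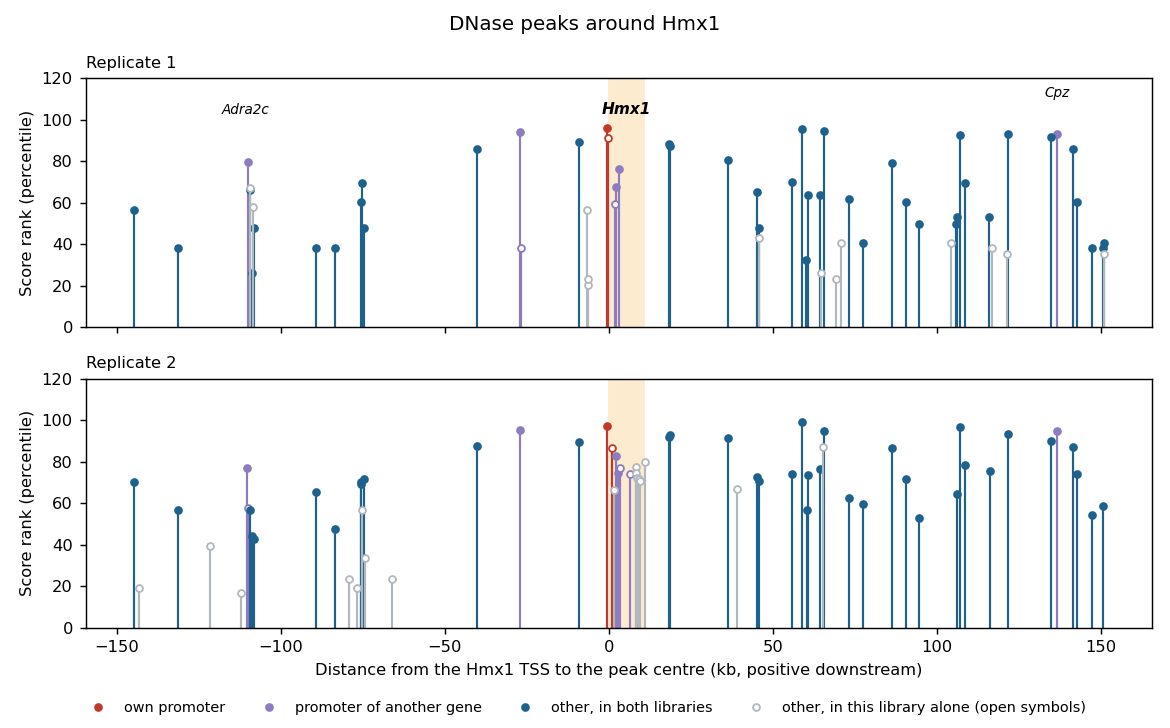
Peaks around Hmx1 by distance from its TSS (x axis, kb) and score rank within the library (y axis, percentile), drawn as for Foxd1. High filled symbols run from +18.4 kb to the Cpz promoter in both libraries, and replicate 2 has open symbols inside the gene.

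Most neighbours of Hmx1 had a promoter peak in both libraries. Cpz ranked 93.2 in replicate 1 and 94.7 in replicate 2. Adra2c, an adrenergic receptor gene, ranked 79.6 and 77.2. The noncoding 4930478P22Rik ranked 94.0 and 95.2. The unclassified transcripts 4930442P19Rik and Gm43377 start inside Hmx1, so some peaks in the gene counted as their promoter peaks. Gm43377 had one in replicate 2 alone, at rank 74.1.

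Inside the Hmx1 gene the libraries differed. Replicate 1 had 3 peaks there and replicate 2 had 11, of which 2 were shared in each. The 9 found in replicate 2 alone had scores of 63 to 97 and ranks of 66.3 to 86.5. Their hotspots were weak, with a −log10 false discovery rate of 1.48 to 4.24 on a scale that stops at 100. All 9 lay in a hotspot below 5, against 5.83% of all replicate 2 peaks in that range of ranks and 12.0% of those not shared. The 2 shared peaks of the gene in replicate 2 also lay in such hotspots, at 3.22 and 2.12. In replicate 1 the gene's 3 peaks lay in 1 hotspot of 1123 bp at 100, the widest of the window. The region was singled out after its values were seen, and the part of any technical difference in it was not tested.

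**Figure D4:**
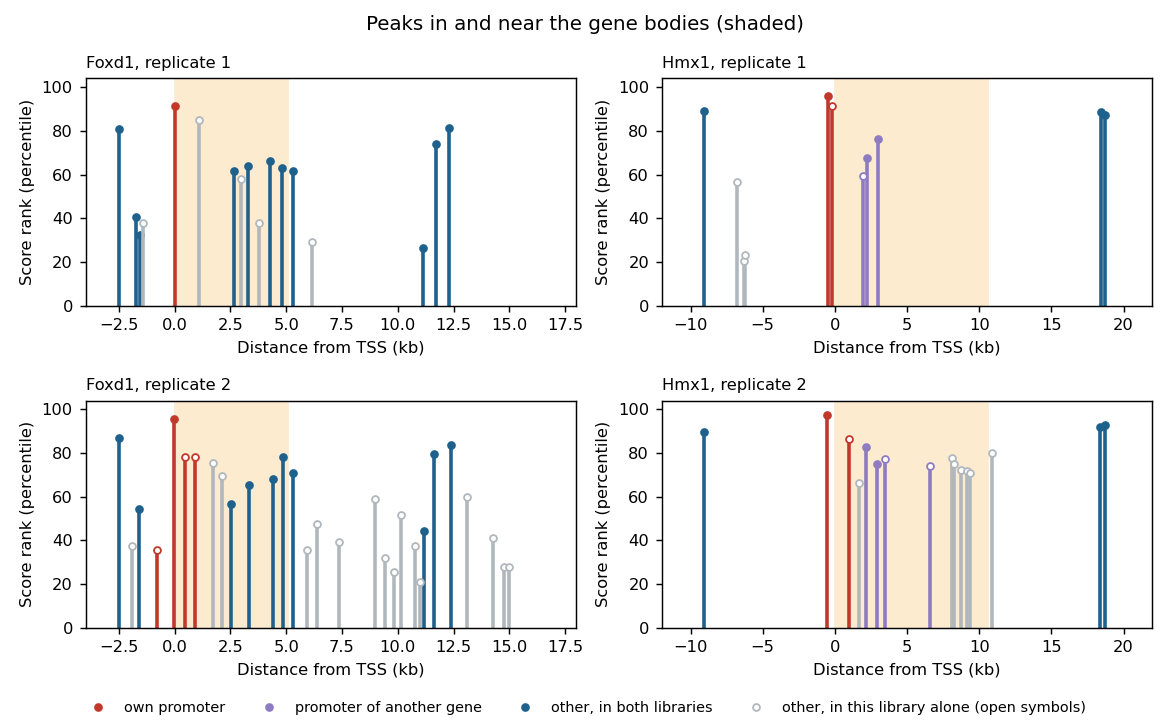
Peaks in and near the gene bodies (shaded) of Foxd1 (left) and Hmx1 (right), by distance from the TSS (x axis, kb) and score rank (y axis, percentile); open symbols are peaks in 1 library alone. Replicate 2 has a run of low peaks after the Foxd1 gene and 9 unshared peaks of rank 66.3 to 86.5 within Hmx1.

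Further peaks of 1 library alone were few among the strong ones. At Hmx1, replicate 2 had one at +65.2 kb with a score of 99 (rank 87.4), 150 bp from a replicate 1 peak, and one at +10.9 kb with a score of 84 (rank 79.9). That site, just past the gene's end, overlapped no replicate 1 hotspot, and the nearest replicate 1 peak was 7390 bp away. Its own replicate 2 hotspot was weak, with a −log10 false discovery rate of 2.63, like those of the 9 unshared peaks within the gene. The +65.2 kb peak lay in a hotspot at 100. In replicate 1 the strongest distal pair found alone lay in the Adra2c exon, with scores of 42 (rank 66.9) and 34 (rank 57.9).

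The ranks of shared sites followed each other between libraries. Spearman's rank correlation over sites was 0.94 at Foxd1 (41 sites) and 0.91 at Hmx1 (46 sites), a description of sites that share their library and not a test. Rank was higher in replicate 2 at 35 of the 41 Foxd1 sites and 40 of the 46 Hmx1 sites, with median differences of 4.33 and 8.35 percentile points. Over all shared peaks the median rank was also higher in replicate 2, 71.5 against 61.7 in replicate 1. The share of all shared peaks that ranked higher in replicate 2 was not computed. The counts are therefore not read as particular to these windows.

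**Figure D5:**
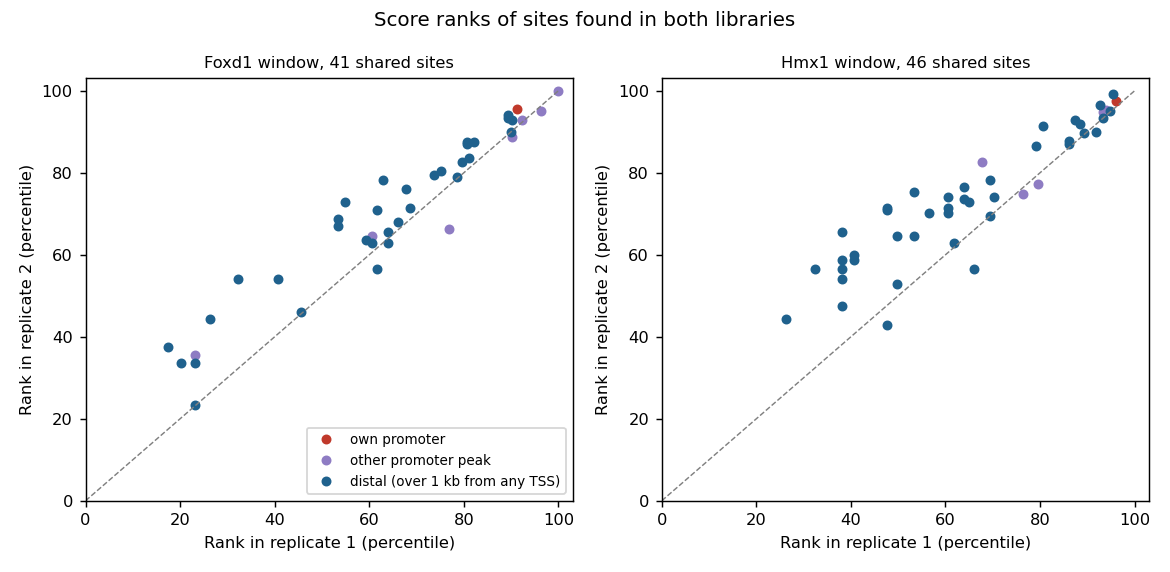
Rank of each shared site in replicate 1 (x axis, percentile) and replicate 2 (y axis, percentile) in the Foxd1 window (left) and the Hmx1 window (right), with the line of equal rank. Most points lie above the line and the promoters and strongest distal sites lie near its top.

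Motif cores were searched on both strands in the shared distal peaks, 33 at Foxd1 and 40 at Hmx1, and set beside all 85021 shared distal peaks. The E-box CANNTG was in 18 of 33 Foxd1 sites and 28 of 40 Hmx1 sites, against 63.1% of all. The Hmx core CAAGTG, which is itself an E-box, was in 4 and 4, against 9.6%. The Sox core ACAAAG was in 5 Foxd1 and 2 Hmx1 sites, against 15.1%. The CTCF core was in 1 and 3, against 7.01%. The homeodomain core TAATTA was in 1 and 0, against 6.4%. The forkhead core TGTTTAC was in 0 and 1, against 1.75%. With so few sites the shares carry wide counting error, and no match says only that these letters are not in the 150-bp peaks. With 50 bp more searched on either side, the forkhead core was in 2 Foxd1 sites, the homeodomain core in 1 Hmx1 site and the Sox core in 8 Foxd1 and 5 Hmx1 sites. Mean G and C content was 52.9% at Foxd1 and 55.7% at Hmx1, against 50.2% over all.

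Other genes of the nasal-temporal axis were read the same way from a list of 20. All 20 had a promoter peak in both libraries, against the 70.3% and 71.9% of all protein-coding genes given above. Their median promoter rank was 92.3 in replicate 1 and 92.7 in replicate 2, below the 95.0 and 95.9 of the median open promoter. Their median density was 16.7 and 18.2 peaks per 100 kb. It ranged widely, from 2.40 to 34.8 in replicate 1 and from 5.03 to 32.6 in replicate 2. The promoter of Foxd2, a paralogue of Foxd1, ranked 89.6 in both libraries. Hmx2 ranked 70.2 and 73.5 and Hmx3 ranked 88.5 and 92.5, below Hmx1 in both libraries. Efna5, an ephrin ligand gene, ranked 92.3 and 88.3, and Epha5, a receptor gene, 95.6 and 98.0. The window of Epha5 was nonetheless sparse, with 3.92 and 7.55 peaks per 100 kb, below the median gene in both libraries. That of Efna5 had 10.7 and 13.5, above it.

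Genes elsewhere with the most similar density in both libraries were Comtd1, Ankrd13a and Mmab for Foxd1. Their summed absolute log2 ratios to it were 0.018, 0.041 and 0.042. For Hmx1 they were Capn15, Dnph1 and Srf, with 0.018, 0.020 and 0.020. This likeness is over 2 libraries and concerns density alone.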

How the data were processed

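DNase-seq peaks and hotspots of 2 libraries were used as deposited, on mm10 per the labels. The authors' peak score takes whole values between 1 and 150, written in decimal form for 12.1% of peaks in replicate 1 and 7.80% in replicate 2, and its meaning is not stated, so it served only to rank peaks within a library. The deposited hotspot lists give a −log10 false discovery rate, with a lowest value of 1.30 and a ceiling of 100. Names and settings of the aligner and caller were not given in the sources used here. Duplicate lines (34 and 56) were removed. Promoter peaks overlapped 1 kb on either side of a TSS of GENCODE M21, distal peaks were those farther away than this from every TSS, and ranks are percentiles with ties averaged. Windows of all 21755 protein-coding genes on autosomes and X served as background. No count of reads was available, so no test was run and results are listed by library or as mean ± SD (n = 2). The overlap and distance routines were tested on simulated data. Named sites were the promoter peaks, the 5 shared distal peaks with the highest lower rank and the strongest peaks of 1 library alone; the sites at -2.51, +12.3, +18.4, +18.7, -9.08 and -40.1 kb were added after their values were seen. The members and lists were chosen with earlier results of these data known. Python 3.11.15, numpy 2.4.6, pandas 2.3.3 and matplotlib 3.10.9 were used.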

Additional observations from a re-analysis of the deposited data

How the results depend on the processing

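Of 44 alternatives for values with both libraries, 27 moved them by less than 1 SD between the libraries. Leaving out either library gives the other's value and, with 2 libraries, cannot move a mean by more than that. This limit was loose at Foxd1, where density had an SD of 6.72, and strict at Hmx1, where it was 0.683. The counts therefore do not compare the genes. The Foxd1 shared percentage of 65.2 (SD 21.5) became 85.2 with only stronger peaks and 50.7 at an overlap of 50%, and still counted as unmoved. For Foxd1, density was 12.5 per 100 kb when weaker peaks were left out and 30.9 within 50 kb, hotspot cover was 12.7% within 50 kb, and 8 pairs of site and motif, in place of 29, were left among sites over 10 kb from any TSS. For Hmx1, density was 14.8 when weaker peaks were left out, 19.5 without decimal scores, 21.2 within 50 kb, 16.8 within 250 kb and 17.5 without promoter peaks of other genes. Its percentile among genes was 92.7, 91.8, 86.8, 80.7 and 97.4 under those same 5 alternatives. Its shared percentage was 59.9 at an overlap of 50% and 62.2 within 50 kb, and its hotspot cover was 4.66% with only hotspots at the ceiling and 5.98% within 250 kb. No paired analysis was possible because the result comes from no test. The libraries' depth is unknown, which limits what absence of a peak can show.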
